A study of Mus musculus with 4 samples.

Results

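Glycolysis was followed through 10 genes in single cells of mouse draining lymph nodes: the glucose transporter Slc2a1 and the enzyme genes Hk2, Pfkl, Pfkp, Aldoa, Gapdh, Pgk1, Pgam1, Pkm and Ldha. They were chosen by name, with earlier results of these data known, and make up 10 of the 32285 genes counted. Their counts beside the shares of all genes therefore only describe them. The samples were 4 libraries, 1 per biological replicate, from wildtype C57BL/6 mice. In the EV group (2 libraries) the mice were injected subcutaneously with 100 µg of extracellular vesicles (EVs) from induced pluripotent stem cells (iPSCs), and in the Control group (2 libraries) with no EVs. The labels call the controls untreated, whereas the methods describe PBS injections. The labels also give a treatment time of 24 h, whereas the design text and the methods place the harvest on day 5 after injection. No cell type was enriched, and the mice carried no transgene according to these sources.

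Glycolysis breaks glucose down to pyruvate in the cytoplasm. Slc2a1 (GLUT1) lets glucose into the cell, and Hk2, a hexokinase, traps it as glucose 6-phosphate. Pfkl and Pfkp encode the liver and platelet subunits of phosphofructokinase, the main committed step, and Aldoa splits the resulting sugar into trioses. Gapdh, Pgk1 and Pgam1 then act in sequence on the trioses, pyruvate kinase (Pkm) makes pyruvate, and Ldha, a lactate dehydrogenase subunit, turns pyruvate into lactate. Resting lymphocytes run this pathway slowly. Activated and dividing lymphocytes are known to raise glucose uptake and many of these enzymes.

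The genes lie on 8 different chromosomes, so that apart from the pairs on chromosomes 6 and 7 no members are linked. In GRCm38 (mm10, GENCODE M21 annotation), Slc2a1 spans chr4:119108711-119137983, Hk2 chr6:82725025-82774454, Pfkl chr10:77986947-78010083, Pfkp chr13:6579768-6648777 and Aldoa chr7:126795234-126800751. Gapdh spans chr6:125161715-125166467, Pgk1 chrX:106187100-106203699, Pgam1 chr19:41911923-41918660, Pkm chr9:59656368-59679375 and Ldha chr7:46841475-46855627. No counted gene overlaps any of them on the same strand. Pseudogenes were looked for only under the gene's own symbol followed by ps and a number. The annotation held 2 of these each for Aldoa, Gapdh, Pgk1, Pgam1 and Ldha, none of which is among the counted genes. Copies under other names were not looked for, among the counted genes or elsewhere. Reads shared with such copies cannot be told apart from those of the parent gene. A second counted feature with the symbol Aldoa held 3, 1, 2 and 0 UMIs in Control libraries 1 and 2 and EV libraries 1 and 2 and was left out.

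The start-site windows of 4 genes are shown because 3 of these genes (Gapdh, Pgam1 and Ldha) rose together in T cells after EVs, whereas Slc2a1 was not called. Each runs from 250 bases before to 50 bases after the start site, taken from RefSeq on GRCm38.p6 and written 5′ to 3′ on the gene's strand. Capitals mark ACGTG or GCGTG on either strand, the core that hypoxia-inducible factors recognise. The E-box CACGTG, which Myc recognises, holds this core on both strands and so counts as 2 matches.
Gapdh, chr6:125165724-125166023, minus strand: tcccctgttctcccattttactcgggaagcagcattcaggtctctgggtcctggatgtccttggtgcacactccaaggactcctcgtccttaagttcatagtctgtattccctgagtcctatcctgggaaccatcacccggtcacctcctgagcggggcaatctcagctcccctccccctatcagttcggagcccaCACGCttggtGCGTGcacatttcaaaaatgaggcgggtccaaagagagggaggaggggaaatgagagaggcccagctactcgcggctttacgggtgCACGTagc
Pgam1, chr19:41911621-41911920, plus strand: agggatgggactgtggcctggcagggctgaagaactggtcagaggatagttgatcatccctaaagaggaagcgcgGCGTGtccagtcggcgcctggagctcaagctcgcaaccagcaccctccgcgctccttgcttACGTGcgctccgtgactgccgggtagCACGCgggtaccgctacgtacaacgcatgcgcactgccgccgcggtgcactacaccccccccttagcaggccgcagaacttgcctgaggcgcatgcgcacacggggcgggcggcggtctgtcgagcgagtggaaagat
Ldha, chr7:46845554-46845853, plus strand: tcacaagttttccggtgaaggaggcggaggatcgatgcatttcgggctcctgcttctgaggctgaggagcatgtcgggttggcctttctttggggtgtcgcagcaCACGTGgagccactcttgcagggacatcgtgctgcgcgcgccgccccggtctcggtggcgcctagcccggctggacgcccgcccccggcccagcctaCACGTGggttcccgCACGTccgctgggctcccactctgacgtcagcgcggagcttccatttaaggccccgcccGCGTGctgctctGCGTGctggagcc
Slc2a1, chr4:119108495-119108794, plus strand: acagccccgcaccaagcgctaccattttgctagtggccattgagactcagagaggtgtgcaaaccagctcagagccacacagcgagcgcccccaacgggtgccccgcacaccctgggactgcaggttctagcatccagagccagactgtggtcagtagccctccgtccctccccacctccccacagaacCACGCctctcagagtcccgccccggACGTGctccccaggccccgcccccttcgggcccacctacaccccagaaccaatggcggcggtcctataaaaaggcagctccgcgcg
The Ldha window held 7 matches, those of Gapdh and Pgam1 held 3 each, and that of Slc2a1 held 2. Among the windows not shown, that of Pfkp, which was not called, held 4, more than Gapdh or Pgam1. The second Ldha window held 2, as did those of Hk2 and Pgk1, and that of Pfkl held 1. The Aldoa windows held 0, 1 and 1, and those of Pkm 0 and 2. All 10 genes had RefSeq windows, 14 in all because Aldoa, Pkm and Ldha have several start sites, and 12 of the 14 windows held the core against 43.8% of all 32851 windows. The core holds a CG pair, and the 14 windows had a GC content of 52.7% to 67.3%, where the median of all windows was 52.7%. Of the Aldoa windows a pair overlaps and shares its match. The E-box stood in 1 of the 14, the first Ldha window, with 2 copies, against 7.15% of all windows. None of the 14 held a heat shock element of 3 alternating GAA and TTC units with 2 bases between units, a pattern found in 0.603% of all windows. These matches describe letters only, and the core stood both in windows of genes that rose and in that of Slc2a1.

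The libraries held 50749656 to 70418672 UMIs in 8297 to 9000 barcodes. The filters asked for 200 to 5000 genes, no more than 20000 UMIs and under 10% mitochondrial UMIs per cell, which left 32725 cells, 16032 of Control and 16693 of EV. Pairs of libraries shared 11 to 24 barcodes, at most 0.294% of the smaller library. Raw UMIs were summed per library over 5 classes set by marker UMIs. B cells held Cd79a and no Cd3e (14686 cells). CD4 T cells held Cd3e and Cd4 without Cd8a or Cd79a (5197 cells), and CD8 T cells held Cd3e and Cd8a without Cd4 or Cd79a (5901 cells). Regulatory T cells (Tregs) held Foxp3 and Cd3e (636 cells), and macrophages held at least 2 UMIs of C1qa and C1qb together without Cd3e (280 cells). In the tests of EV against Control the gates could overlap, so some cells counted both as CD4 T cells and as Tregs. Of the CD4 T cells, 1288 of 1383 and 1531 of 1624 in Control lay outside the Treg gate, and 869 of 923 and 1202 of 1267 in EV. For B, CD4 T and CD8 T cells the markers not used for the gates fitted the names, with B cell markers at 9940 to 11632 CPM (a gene's share of all UMIs of the class in a library, times 1e6) in B cells and at 16.9 to 38.4 CPM in CD4 and CD8 T cells. The Treg gate also held B cell transcripts. Its B cell marker sum was 646 and 145 CPM for Control against 724 and 835 CPM for EV. Cd79a stood in 13.1% and 6.98% of its cells for Control against 22.2% and 13.4% for EV. Its CD8 T cell marker sum was 107 and 214 CPM for Control against 115 and 81.1 CPM for EV, where CD4 T cells had 15.4 to 27.1 CPM. With Cd4 and without Cd8a or Cd79a were 95 of 213 and 93 of 172 of its cells in Control, and 54 of 117 and 65 of 134 in EV. The macrophage gate was mixed, since its B cell marker sum was 2756 and 2430 CPM in the Control libraries and 4514 and 5294 CPM in the EV libraries, and its macrophage marker sum was 18732 and 16594 CPM for Control against 11444 and 8729 CPM for EV.

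In CD4 T cells, 3 of the 9 genes that could be tested were called, and all 3 rose with EVs, each by about the same fold. They were Gapdh and Pgam1 after the sugar is split and Ldha at the end of the pathway. Over all 11933 genes tested in these cells, 0.788% were called higher, at an adjusted p under 0.05 from edgeR's quasi-likelihood test. Gapdh stood at 333 and 319 CPM in the Control libraries and at 450 and 467 CPM in the EV libraries. Every EV library therefore lay above every Control library, with a log2 fold change of 0.49 ± 0.094 (SE, 2 libraries per group) and an adjusted p of 0.0346. This corresponds to a fold of 1.41. Ldha stood at 207 and 230 CPM for Control against 330 and 302 CPM for EV, again without overlap. Its log2 fold change was 0.53 ± 0.099 (adjusted p 0.0324), a fold of 1.44. Pgam1, which moves the phosphate group of phosphoglycerate, stood at 35.3 and 35.8 CPM for Control against 50.8 and 49.8 CPM for EV. The groups lay well apart for this lower count too, with a log2 fold change of 0.50 ± 0.097 (adjusted p 0.0379).

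The other 6 genes tested in CD4 T cells were not called. Slc2a1 was lower in both EV libraries, with 24.4 and 25.1 CPM in Control against 21.9 and 20.3 CPM in EV, and its log2 fold change of -0.23 ± 0.116 did not pass (adjusted p 0.338). Of all genes, 25.2% had both EV libraries below both Control libraries, so this order alone is common. Pfkl (log2 0.20 ± 0.125), Pfkp (0.19 ± 0.096) and Aldoa (0.17 ± 0.087) were not called, with adjusted p of 0.452, 0.357 and 0.341. Pgk1, between Gapdh and Pgam1 in the pathway, had 76.5 and 72.8 CPM for Control against 83.5 and 87.9 CPM for EV. Its log2 fold change of 0.20 ± 0.090 was smaller than those of its neighbours and was not called (adjusted p 0.296). Pkm stood at 162 and 172 CPM for Control against 215 and 220 CPM for EV. Its groups did not overlap either, and its log2 fold change of 0.38 ± 0.089 narrowly missed the threshold (adjusted p 0.0712), whereas DESeq2 called it (adjusted p 0.0224). In all, 8 of the 9 genes had both EV libraries on top, an order seen in 24.2% of all genes tested. The median log2 fold change of the 9 was 0.20, against 0.00072 over all genes tested. Hk2 was too low to test, with 18 UMIs over the 4 libraries in CD4 T cells outside the Treg gate.

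CD8 T cells showed the same 3 calls, Gapdh, Pgam1 and Ldha, out of 10 genes tested, where 1.34% of the 12284 genes tested were called higher. Ldha stood at 188 and 188 CPM for Control against 252 and 260 CPM for EV. The 2 groups were tight and far apart, with a log2 fold change of 0.45 ± 0.080 (adjusted p 0.0172). Pgam1 had 40.8 and 41.9 CPM for Control against 55.2 and 55.9 CPM for EV (0.43 ± 0.084, adjusted p 0.0242). Gapdh had 302 and 295 CPM for Control against 383 and 400 CPM for EV (0.39 ± 0.084, adjusted p 0.0360). The folds were 1.36, 1.34 and 1.31, in that order. Pkm followed with 116 and 115 CPM for Control against 132 and 146 CPM for EV, which was not called (0.28 ± 0.082, adjusted p 0.110), nor was Pgk1 (0.22 ± 0.080, adjusted p 0.177). For Slc2a1, Control libraries held 29.0 and 25.3 CPM and EV libraries 23.5 and 23.2 CPM (-0.21 ± 0.108, adjusted p 0.313). Both EV libraries lay below Control for this gene, as for 25.3% of all genes. Pfkl (-0.11 ± 0.132), Pfkp (0.10 ± 0.081) and Aldoa (0.13 ± 0.079) had small log2 fold changes, and none was called (adjusted p of at least 0.391). Hk2, at 2.34 and 2.02 CPM for Control against 2.75 and 1.30 CPM for EV, was too low for a close estimate. Its log2 fold change of -0.14 ± 0.380 was not called (adjusted p 0.878). For 7 of the 10 genes both EV libraries were above both Control libraries, against 24.4% of all genes tested.

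**Figure D1:**
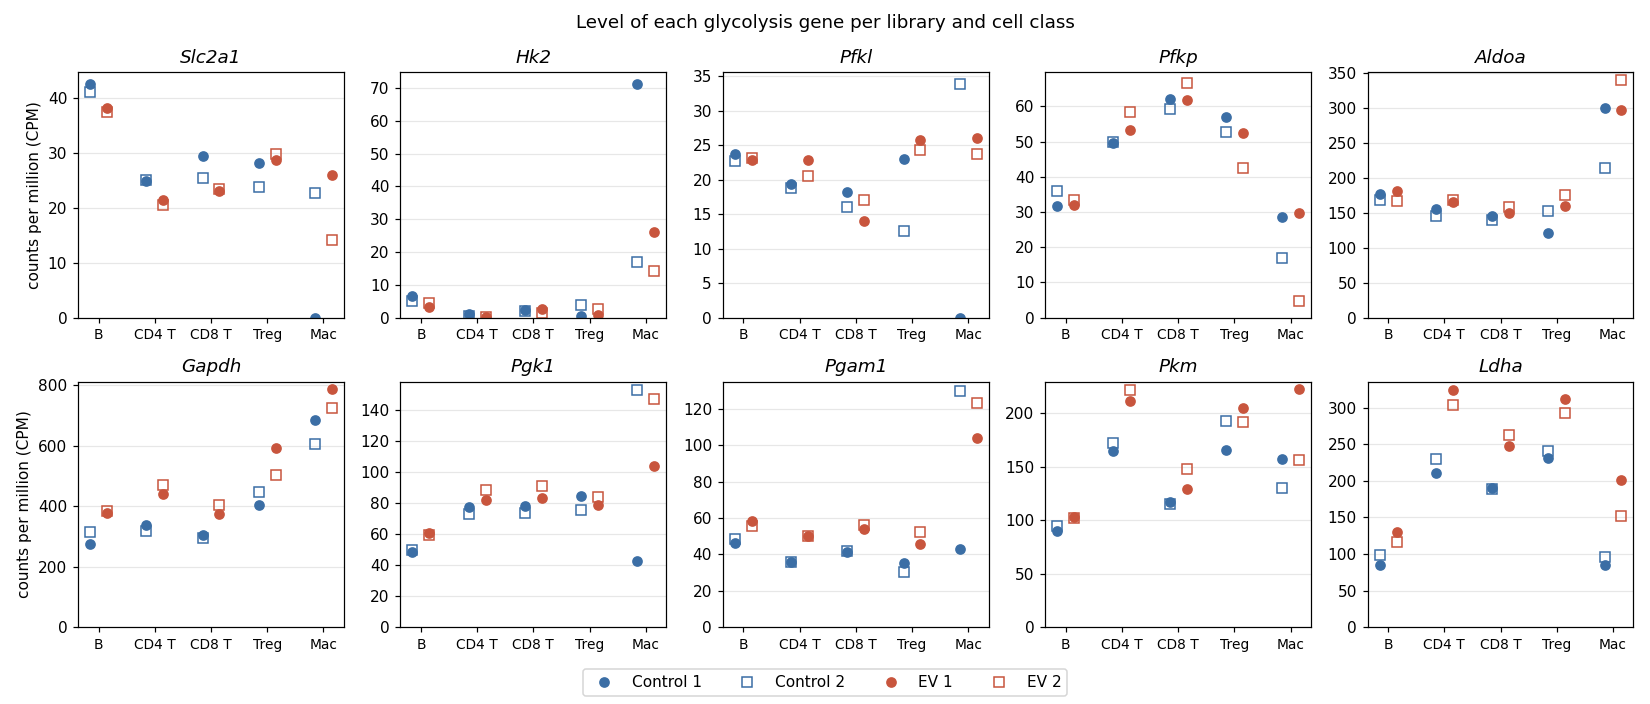
Level of each of the 10 genes in each library, in CPM (vertical axis starting at 0) before edgeR's scaling, for the 5 classes (Mac, macrophages). Blue marks Control and red EV, filled circles replicate 1 and open squares replicate 2; Gapdh, Pgam1 and Ldha in CD4 and CD8 T cells have both EV points above both Control points, and Hk2 is near 0 in T cells.

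The 6 calls in T cells rested on 2 libraries per group. Each was lost when either Control library was left out and kept when either EV library was left out. The fits without an EV library also called many more genes over the whole transcriptome, so a call kept there says little about these genes. The log2 fold changes stayed between 0.36 and 0.61. When each cell was thinned to 1000 UMIs, Gapdh in CD4 T cells stayed called (0.45, adjusted p 0.0455), whereas Ldha (0.36, 0.170) and Pgam1 (0.59, 0.232) did not. Of the CD8 T cell calls none stayed after thinning, with log2 fold changes of 0.28 for Gapdh, 0.37 for Pgam1 and 0.36 for Ldha. DESeq2 did not call Pgam1 in CD4 (adjusted p 0.119) or CD8 T cells (0.0638).

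In B cells none of the 10 genes was called, where 1.57% of 13270 genes tested were called higher, yet 5 of them passed an unadjusted p of 0.05 and all 5 of these were higher with EVs. Over all genes, 18.9% passed that unadjusted threshold. Ldha stood at 83.2 and 97.2 CPM for Control against 133 and 118 CPM for EV. The groups did not overlap, and the log2 fold change of 0.48 ± 0.104 had an adjusted p of 0.0536. Gapdh had 269 and 311 CPM for Control against 385 and 390 CPM for EV (0.42 ± 0.106, adjusted p 0.0811). Pgk1 was close to Pgam1 here, at 47.4 and 49.0 CPM for Control against 62.02 and 59.8 CPM for EV (0.34 ± 0.082, adjusted p 0.0728). For Pgam1 the values were 45.3 and 47.8 CPM for Control against 59.5 and 56.3 CPM for EV (0.32 ± 0.085, adjusted p 0.0952). For 5 of the 10 genes both EV libraries were above Control, against 25.6% of all genes. Slc2a1 and Hk2 had both EV libraries below, an order seen in 26.2% of all genes. Hk2 had 6.51 and 5.01 CPM for Control against 3.47 and 4.65 CPM for EV, a difference that did not pass the test (-0.51 ± 0.227, adjusted p 0.270). Pfkl, Pfkp and Aldoa overlapped between groups, with log2 fold changes of 0.03, -0.0043 and 0.06.

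Whether a gene was called in B cells depended on the setting. Ldha was called in 8 of 12 alternatives and Gapdh in 5 of 12. Both were called when either EV library was left out but not when either Control library was. The calls over all genes likewise rose without either EV library and fell without either Control library. For Ldha the adjusted p was 0.0428 with stress, abundant, ribosomal protein and mitochondrially encoded genes out of the library sizes. It was 0.0476 with stricter gates, 0.0027 with a replicate block and 0.169 after thinning. Without the upper limits on genes and UMIs per cell, Gapdh (0.72), Ldha (0.74), Pgk1 (0.62), Pgam1 (0.59) and Pkm (0.42) all rose, with adjusted p of 0.0082, 0.0066, 0.0070, 0.0074 and 0.0249, in a fit that called 5.83% of 13508 genes. DESeq2 called Gapdh (adjusted p 0.0024) and Ldha (0.0036) with the limits in place, where it called 4.02% of its genes. Among B cells of naive type (Ighd and Fcer2a, 74.9% to 80.9% of B cells) edgeR likewise called Gapdh (0.43, adjusted p 0.0310) and Ldha (0.51, 0.0111). This setting was added after seeing the data, and it called 520 genes in all, against 338 in the main setting.

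Tregs and macrophages were few, and no gene of the 10 was called in either. In Tregs 9 genes could be tested and 3 passed an unadjusted p of 0.05 (Gapdh, Ldha and Pgam1), all higher with EVs, where 7.57% of all genes passed it. Gapdh stood at 406 and 453 CPM for Control against 593 and 495 CPM for EV (0.34 ± 0.141, adjusted p 0.586). Ldha stood at 232 and 244 CPM for Control against 312 and 287 CPM for EV (0.33 ± 0.141, adjusted p 0.596). For Pgam1, counts were lower, with 35.2 and 30.8 CPM for Control against 46.0 and 51.3 CPM for EV (0.55 ± 0.233, adjusted p 0.591). The EV libraries were above Control for 6 of the 9 genes, against 18.4% of all genes tested, and edgeR called 0.124% of 8876 genes. DESeq2 called none of the 3 genes to which it gave an adjusted p, and 2.44% of all. The B cell marker sum of the Treg gate, given above, was higher in both EV libraries than in either Control library, by a ratio of means of 1.97, and its macrophage marker sum was 11.5 and 9.64 CPM for Control against 50.6 and 8.11 CPM for EV. Their part in the Treg values was not tested. In macrophages 6 genes passed the filter and none reached an unadjusted p of 0.05, which 9.06% of all genes did. Ldha was the only one without overlap, at 89.5 and 100 CPM for Control against 195 and 143 CPM for EV (0.81 ± 0.381, adjusted p 0.554). This order was found in 21.3% of all genes tested there, and edgeR called 0.0286% of 3497 genes. DESeq2 called none of the 10 genes and 0.00773% of all. These 280 cells gave 1200 UMIs of the 10 genes in all, and the SE of the 6 log2 fold changes was between 0.247 and 0.587.

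**Figure D2:**
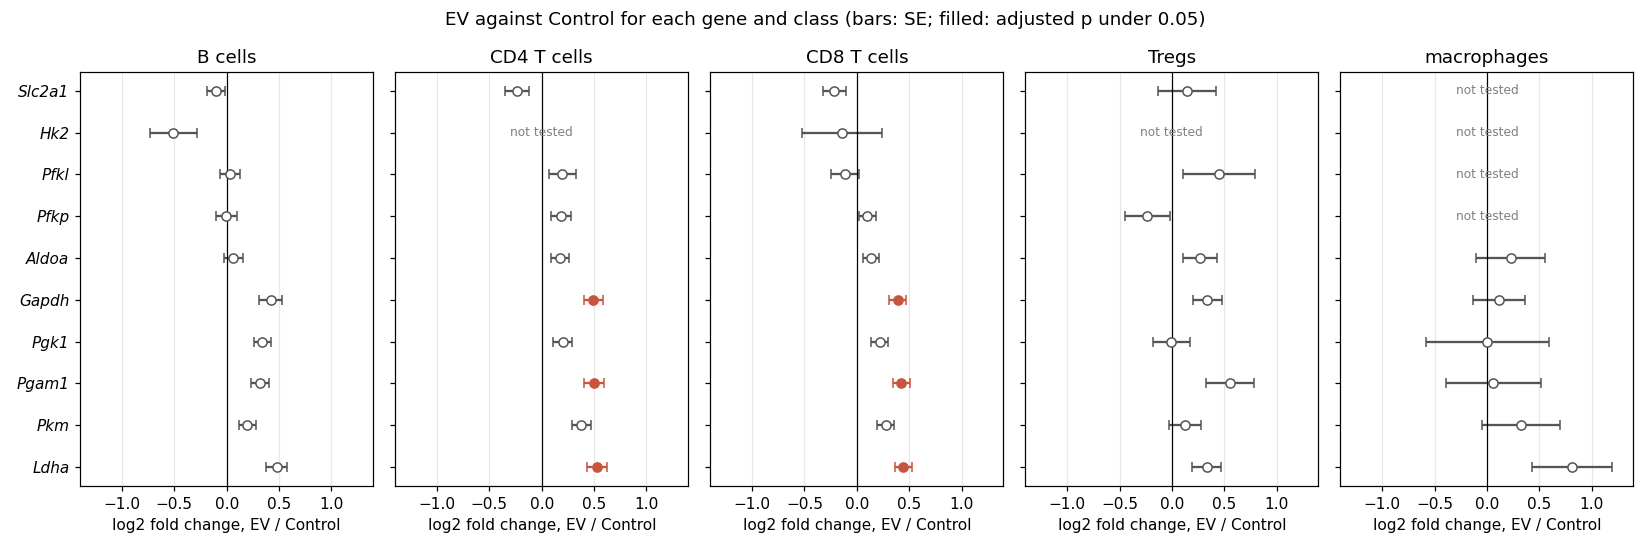
Log2 fold change of EV against Control (horizontal axis) for each gene (vertical axis, in pathway order) in each of the 5 classes, with bars for the SE of the edgeR fit on 2 libraries per group. Filled red points passed an adjusted p of 0.05, open points did not, and genes too low to test are marked; the filled points are Gapdh, Pgam1 and Ldha in CD4 and in CD8 T cells, between 0.39 and 0.53.

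Whether the EV effect differed between classes was tested as an interaction over 20 sums (5 classes in 4 libraries, with library as a block). No member was called, and none reached an unadjusted p of 0.05, in the comparison of CD4 T cells with B cells, CD8 T cells, Tregs or macrophages. Of all 14150 genes in that fit, 1.6%, 0.141%, 0.155% and 0.0636% were called for these 4 differences. For Ldha the effect in B cells minus that in CD4 T cells was -0.04 ± 0.088 on the log2 scale, and for Gapdh -0.06 ± 0.093. The nearest to the threshold was Pkm, whose effect in B cells was lower by -0.18 ± 0.090 (adjusted p 0.550). A call in T cells and none in B cells therefore does not show that the classes differ.

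The levels of the genes were also compared between classes, each against CD4 T cells outside the Treg gate over the 4 libraries. Such differences were common among all genes, whose shares are given beside the counts. B cells held more Slc2a1, Hk2 and Pgam1 (3 genes called higher, against 27.9% of all genes) and less Pfkp, Gapdh, Pgk1, Pkm and Ldha (5 called lower, against 35.9%). Hk2 was 4.83 ± 1.18 CPM (SD over 4 libraries) in B cells and 0.533 ± 0.447 CPM in CD4 T cells, a log2 difference of 3.16 ± 0.352 (SE). The lowest B cell library, at 3.44 CPM, was above the highest CD4 T cell library, at 1.17 CPM. Slc2a1 was 39.3 ± 1.74 CPM in B cells and 24.4 ± 2.76 CPM in CD4 T cells (0.69 ± 0.072). Ldha was lower in B cells, at 107 ± 21.5 CPM in B cells and 284 ± 58.9 CPM in CD4 T cells (-1.41 ± 0.059). Pkm was likewise lower in B cells, at 96.2 ± 7.57 against 205 ± 30.9 CPM (-1.08 ± 0.060). For Gapdh (-0.28 ± 0.061) and Pgam1 (0.17 ± 0.064) the difference was small, and each lost its call in 1 alternative, Gapdh after thinning (adjusted p 0.188) and Pgam1 without cycling cells (adjusted p 0.340).

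Between CD8 and CD4 T cells 5 of the 10 genes differed. CD8 T cells held more Hk2 (2.10 ± 0.401), Pfkp (0.28 ± 0.069) and Pgam1 (0.22 ± 0.066), 3 genes called higher against 12% of all genes, and less Pkm (-0.55 ± 0.060) and Ldha (-0.21 ± 0.057), 2 called lower against 14.1%. Pfkp, the platelet-type phosphofructokinase subunit, was at its highest here, with 68.7 ± 2.97 CPM against 56.4 ± 4.62 in CD4 T cells and 32.8 ± 1.88 in B cells. Among these 5, the Pkm difference stayed called after thinning and the others did not. Without Control library 2 the Ldha difference (-0.18, adjusted p 0.0857), and without EV library 2 the Pgam1 difference (0.24, adjusted p 0.0506), were not called. In Tregs the test called 1 gene, Aldoa, which was lower (-0.26 ± 0.074, adjusted p 0.0111) where 23.6% of all genes were called. That call was lost in 3 of 4 alternative settings and without Control library 1 (-0.13, adjusted p 0.3298). Gapdh, not called in Tregs at first (0.17, adjusted p 0.0611), was called higher after thinning (0.38, adjusted p 0.0090), with doublets removed (0.22, adjusted p 0.0091), without filterByExpr (0.23, adjusted p 0.0107) and without EV library 2 (0.25, adjusted p 0.0165), but not with cycling cells removed (0.11, adjusted p 0.199).

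In macrophages Hk2 reached 28.8 ± 22.2 CPM, with 61.1 CPM in Control library 1 and 12.5 to 25.3 CPM in the others, and the log2 difference from CD4 T cells was 5.52 ± 0.674 on 18 UMIs. Pgam1 (1.09 ± 0.179), Gapdh (0.64 ± 0.088) and Aldoa (0.63 ± 0.114) were higher too, so that 4 genes were called higher against 17.2% of all genes. Pfkp (-1.67 ± 0.332), Ldha (-1.11 ± 0.129) and Pkm (-0.38 ± 0.136) were lower, against 21.3% of all genes. The Pkm call was lost in 3 of 4 alternative settings, and without either Control library (-0.29 and -0.23) or EV library 2 (-0.29). Median depth was 1100 and 1113.5 UMIs per macrophage in Control and 1456 and 1387 in EV, against 6046 to 8339 per CD4 T cell. The set of abundant transcripts described below summed to 47688 and 26278 CPM in Control macrophages and 15008 and 2531 CPM in EV. In CD4 T cells it summed to 1331 to 14325 CPM. The calls other than Pkm stayed after thinning. Thinning kept 24 of 42 and 43 of 80 macrophages in Control, and 61 of 91 and 44 of 67 in EV. The part of the abundant transcripts and of the B cell transcripts in the macrophage gate, given above, in these differences was not tested.

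**Figure D3:**
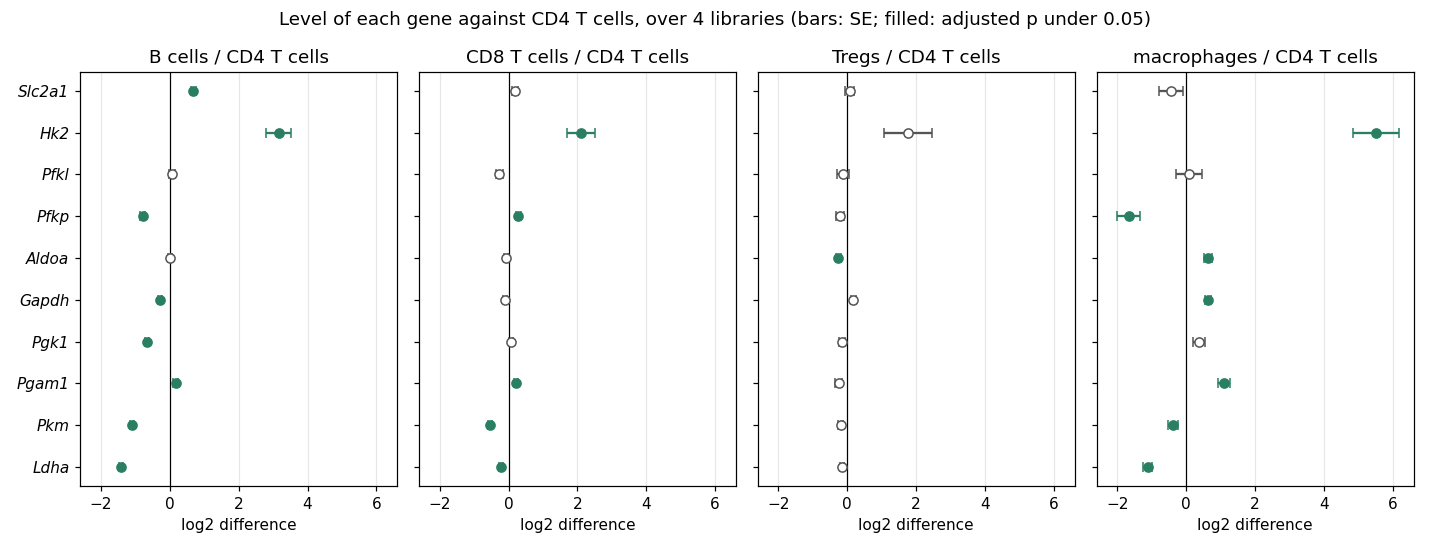
Log2 difference in level of each gene between B cells, CD8 T cells, Tregs or macrophages and CD4 T cells (horizontal axis), from 1 fit over 4 libraries, with bars for the SE. Filled points passed an adjusted p of 0.05; Hk2 lies far to the right in B cells (3.16), CD8 T cells (2.10) and macrophages (5.52), and Ldha to the left in B cells (-1.41) and macrophages (-1.11).

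For Slc2a1 the order of the mean levels was B cells, CD8 T cells (27.8 ± 2.98 CPM), Tregs (25.9 ± 2.33), CD4 T cells and macrophages (14.8 ± 11.2), and neither CD8 T cells nor Tregs were called against CD4 T cells. For Ldha it was CD4 T cells, Tregs (253 ± 34.5 CPM), CD8 T cells (244 ± 41.9), macrophages (123 ± 54.1) and B cells, with Tregs not called against CD4 T cells (adjusted p 0.104). Gapdh ran from macrophages (641 ± 87.3 CPM) over Tregs (458 ± 72.4), CD4 T cells (409 ± 79.2) and CD8 T cells (379 ± 57.7) to B cells (335 ± 57.9), and neither CD8 T cells nor Tregs were called against CD4 T cells. Aldoa and Pfkl were not called between B cells and CD4 T cells, with B cells at 171 ± 7.92 and 22.8 ± 0.477 CPM and CD4 T cells at 170 ± 11.1 and 21.8 ± 1.96 CPM.

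Across the 20 sums, Pkm and Ldha, the final pair of steps, followed each other with a Pearson r of 0.79, and with 0.93 over the 16 sums without macrophages. Slc2a1 and Pfkl had the highest r of any pair (0.96), and 0.39 without macrophages, and both were at 0 UMIs in macrophages of Control library 1. Over the 16 sums Slc2a1 ran opposite to Pkm (r -0.94) and Ldha (r -0.93). These sums share libraries and differ in depth, so the values only describe them. The 5 other genes whose level was most like the mean of the 10, among 930 with at least 10 UMIs in every sum, were Atp5c1 (r 0.92), Cfl1 (0.86), Oaz1 (0.82), Ndufa4 (0.82) and Ppp1ca (0.81). This mean was taken over all 20 sums and not repeated without macrophages. It averages genes that also ran opposite to each other over the 20 sums, such as Hk2 and Ldha (r -0.77) or Pfkp and Aldoa (r -0.72).

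Cells with at least 2 UMIs of 6 proliferation genes (Mki67, Top2a, Birc5, Ube2c, Pclaf and Stmn1) held more transcript of the 10 genes. In B cells the summed level was 1549 and 1949 CPM for Control against 2409 and 2506 CPM for EV among 388 such cells, and 810 to 949 CPM among the other 14298. Gapdh accounted for much of it, at 742 and 954 CPM in cycling B cells of Control and 1138 and 1297 CPM in those of EV, against 265 to 355 CPM in the rest. The ranges of cycling and other cells did not overlap in B cells. CD4 T cells showed a smaller gap, with 1279 to 1786 CPM in 342 cycling cells and 1043 to 1366 CPM in the others, and these ranges overlapped. Slc2a1 did not follow the sum in B cells, at 23.3 to 37.9 CPM in cycling cells and 37.9 to 42.6 CPM in the rest. Cycling cells made up 1.53% and 2.996% of B cells in Control and 3.31% and 2.46% in EV. In CD4 T cells they were 5.57% and 6.22% in Control and 7.58% and 7.42% in EV. In CD8 T cells they were 2.32% and 1.61% in Control and 3.79% and 3.03% in EV. Both EV libraries were thus higher in both T cell classes, but the cut is on raw UMIs and EV T cells were deeper. Median depth per CD8 T cell was 7397 and 8565 UMIs in Control and 9871 and 9110 in EV. As CPM, the 6 genes summed to 42.2 and 29.8 for Control against 35.0 and 25.4 for EV in CD8 T cells, which overlap. The part of depth in these shares was not tested. With cycling cells left out, Gapdh, Ldha and Pgam1 stayed called in CD4 T cells (log2 fold changes 0.49, 0.53 and 0.51). In CD8 T cells Ldha (0.44) and Pgam1 (0.44) stayed called and Gapdh (0.38, adjusted p 0.0506) did not, and in B cells Ldha gained a call (0.46, adjusted p 0.0441).

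**Figure D4:**
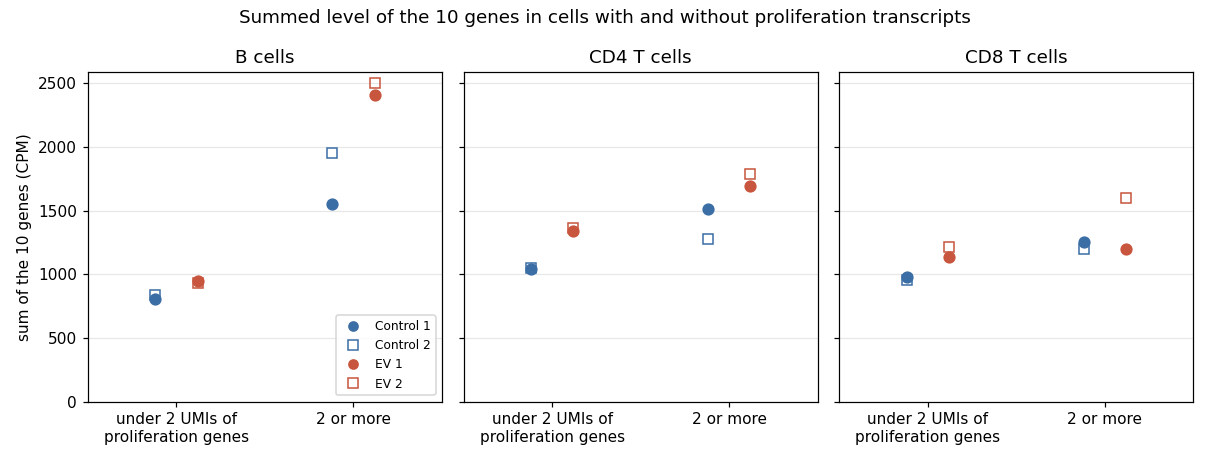
Summed level of the 10 genes (vertical axis, CPM, starting at 0) in cells with under 2 UMIs and with 2 or more UMIs of 6 proliferation genes, for B, CD4 T and CD8 T cells of each library. Blue marks Control and red EV, filled circles replicate 1 and open squares replicate 2; in B cells with under 2 such UMIs the libraries sit between 810 and 949 CPM, and in those with 2 or more between 1549 and 2506 CPM.

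Per cell, the measurement was sparse. After thinning to 1000 UMIs, a CD4 T cell held on average 1.02 and 1.07 UMIs of the 10 genes in Control and 1.28 and 1.35 in EV, with a median of 1 in every library. B cells held 0.819 and 0.890 in Control and 0.982 and 0.996 in EV, and CD8 T cells 1.00 and 0.952 in Control and 1.10 and 1.18 in EV. In all 3 classes both EV means were above both Control means. The 10% of cells richest in these UMIs held 29.0% to 32.9% of them in CD4 T cells.

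None of the other genes of the pathway was called by edgeR. Of 51 other genes of glucose transport, glycolysis, lactate export, pyruvate entry and the pentose phosphate branch, 39, 36, 34, 25 and 9 could be tested in B, CD4 T, CD8 T, Treg and macrophage sums. At an unadjusted p of 0.05, 10 passed in B cells (5 higher), 7 in CD4 T cells (5 higher), 5 in CD8 T cells (3 higher), 1 in Tregs (lower) and none in macrophages. Over all genes 18.9%, 16.7%, 18.2%, 7.57% and 9.06% passed it in these classes. DESeq2 called 1 in B cells, Gpi1, and none elsewhere. The genes that fill the gaps between the members and Pdk1 are named here after their values were seen. Gpi1, which converts glucose 6-phosphate to fructose 6-phosphate, stood at 133 and 131 CPM for Control against 162 and 166 CPM for EV in CD4 T cells (0.31 ± 0.086, adjusted p 0.109). Its values in B cells were 118 and 114 CPM for Control against 148 and 149 CPM for EV (0.36 ± 0.082, adjusted p 0.0613). Tpi1, the triose isomerase, had a log2 fold change of 0.47 ± 0.118 in CD4 T cells (adjusted p 0.0858) and 0.05 ± 0.110 in CD8 T cells. No interaction result is given for Tpi1, so these values do not show that the classes differ. Eno1, the enolase between Pgam1 and Pkm, had 122 and 104 CPM for Control against 119 and 121 CPM for EV in CD4 T cells, which overlap (0.09 ± 0.100). Values for Pdk1, a kinase that holds back pyruvate entry into the mitochondrial cycle, were negative in B (-0.41), CD4 T (-0.30) and CD8 T cells (-0.24), and not called (lowest adjusted p 0.0557). The median log2 fold change of the list was 0.06, 0.02 and 0.04 in these 3 classes, with genes on both sides of 0, and that of the 10 genes 0.13, 0.20 and 0.18. The 2 lists were not tested against each other.

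Of 27 regulators and known targets of the hypoxia, Myc and glucose-sensing pathways, those named were chosen after their values were seen. Mlxip was called higher in B cells (0.65 ± 0.090, adjusted p 0.0123) and CD8 T cells (0.49 ± 0.100, adjusted p 0.0275). It was 1 of 20 and 1 of 23 genes tested there, where 1.57% and 1.34% of all genes were called higher. No other gene of the list was called by edgeR in any class. At an unadjusted p of 0.05, 6 genes passed in B cells and 6 in CD8 T cells, all higher. Of the 22 tested in CD4 T cells 7 passed (6 higher). Over all genes 18.9%, 18.2% and 16.7% passed it in B, CD8 T and CD4 T cells. In Tregs 2 higher and 1 lower passed, against 7.57% of all genes. DESeq2 called 1 in CD4 T cells, Hif1a (adjusted p 0.0231), where it called 165 genes in all. In B cells, where it called 4.02% of its genes, DESeq2 also called Ddit4 (adjusted p 0.0285). Mlxip (MondoA) is a transcription factor that responds to glucose 6-phosphate. In B cells it stood at 88.6 and 97.9 CPM for Control against 142 and 150 CPM for EV. Its best-known target Txnip, which restrains glucose uptake, did not follow, with log2 fold changes of -0.02 ± 0.099 in B cells and 0.12 ± 0.086 in CD8 T cells. Hif1a had 72.0 and 69.2 CPM for Control against 122 and 87.7 CPM for EV in CD4 T cells (0.57 ± 0.137, adjusted p 0.0774). In CD8 T cells its log2 fold change was -0.04 ± 0.084, and no interaction result is given for it either. For Myc the log2 fold changes were 0.43, 0.14 and 0.10 in B, CD4 T and CD8 T cells, and none was called.

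Other measures differed with the treatment beside the 10 genes. B cells made up 37.0% and 31.7% of the cells in Control and 59.6% and 50.4% in EV. CD4 T cells made up 17.0% and 20.6% in Control and 11.3% and 14.9% in EV. CD8 T cells made up 20.7% and 23.6% in Control and 12.3% and 15.9% in EV. A list of 23 heat shock and early response genes summed to 3306 and 3374 CPM for Control against 4901 and 5278 CPM for EV in CD4 T cells, and 7 of its 20 tested genes were called higher there. In CD8 T cells 9 of 21 were called higher and 1 lower, and in B cells 9 of 22 higher and 1 lower. Over all genes tested, 0.788%, 1.34% and 1.57% were called higher in CD4 T, CD8 T and B cells. In Tregs 5 of 19 were called higher, where 0.0789% of all genes were. Median depth was 6046 and 6984 UMIs per CD4 T cell in Control and 8339 and 7551 in EV. A set of 6 abundant transcripts that includes Gm42418 summed to 14213 and 14325 CPM in Control CD4 T cells, 8079 CPM in EV library 1 and 1331 CPM in EV library 2, so that EV library 2 stood apart. In an alternative fit, heat shock, abundant, ribosomal protein and mitochondrially encoded genes were all kept out of the library sizes. The log2 fold changes of Gapdh, Pgam1 and Ldha in CD4 T cells were then 0.50, 0.50 and 0.53. Without EV library 2 they were 0.47, 0.52 and 0.59. Mitochondrially encoded transcripts summed to 29472 and 28888 CPM for Control against 31262 and 34444 CPM for EV in CD4 T cells, and both EV libraries were higher in B and CD8 T cells too. The 6 proliferation genes summed to 124 and 65.4 CPM for Control against 46.6 and 65.7 CPM for EV in CD4 T cells, which overlap, and 4 of the 6 were lower at an unadjusted p of 0.05. Neutrophil markers were at 27.8 CPM in CD4 T cells of EV library 1 and at 0 to 0.597 CPM in the other libraries. The part of these measures in the values of the 10 genes was not tested.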

How the data were processed

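Single-cell RNA sequencing (10x 3′ v3.1) was done on draining lymph node cells of 2 Control and 2 EV-treated replicates. The authors deposited raw UMI counts per gene and barcode, made with Cell Ranger 7.1.0 on mm10 per the labels. The annotation release and the use of intronic reads are not given in the sources used here. Depth was 50749656 to 70418672 UMIs per library.

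Cells were filtered and gated as described, and UMIs were summed per library and class, since cells are not replicates. The study itself compared cells by a Wilcoxon test after clustering. It did so for each EV replicate against both controls, and kept genes that passed for both replicates in the same direction. EV was compared with Control in edgeR 4.0.16 (quasi-likelihood F test, two-sided, TMM, filterByExpr, Benjamini-Hochberg adjustment over all genes tested, threshold 0.05) in R 4.3.3. CPM values beside tests are TMM-scaled. The SE is the log2 fold change divided by the square root of F. Class levels and interactions were fitted over 20 disjoint sums with library as a block. For a single value, an exact permutation test of 2 against 2 libraries gives no p under 0.333, so none was used. Counting was checked for doublets with Scrublet (expected rate 6%, 1.58% to 3.76% of cells marked), which were kept in the main setting. Alternatives were DESeq2 1.42.0, RLE factors, no filterByExpr, a replicate block, thinning to 1000 UMIs, a 60% ribosomal limit and stricter gates. Others were doublets or cycling cells removed, each library left out, and stress and abundant genes out of library sizes. The last also left out all ribosomal protein and mitochondrially encoded genes. Naive-type B cells and no upper limits on genes or UMIs were added after seeing the data. The fits were also run on simulated counts with known changes. These changes were all larger than those of the 6 calls in T cells, so recovery of changes of that size was not examined. The 10 genes and the other lists were chosen with earlier results of these data known. Genes named are the 10 members, called genes of the other pathway list, the 5 genes most like the mean member profile, and each member's closest member. Beyond this rule, Gpi1, Tpi1, Eno1, Pdk1 and the named regulators were chosen after their values were seen. Software included Python 3.11.15 and scanpy 1.11.5.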

Additional observations from a re-analysis of the deposited data

Results flagged for a closer look

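In cells outside the 5 class sums of the main setting, several of the 10 genes had both EV libraries above both Control libraries. Among barcodes over the upper limits this held for 5 of the 10 genes, against 21.9% of genes with at least 10 UMIs, and among cells in none of the 5 gates for 8 of the 10, against 22.8%. Cells in none of the 5 gates were not part of any test. Their median depth was 6061 and 6749 UMIs per cell in Control and 8272.5 and 7818.5 in EV. The mix of cell types was not determined for either kind of barcode, and both come from the same 4 libraries. The part of depth and cell mix in the ratios below was not tested. Barcodes over the upper limits were left out of the main tests. Those that met a gate entered the fits without upper limits, given above for B cells. Among barcodes over the upper limits of 5000 genes or 20000 UMIs, of which there were 50 and 83 in Control and 218 and 234 in EV, Gapdh stood at 888 and 689 CPM for Control against 1181 and 1214 CPM for EV, and the ratio of the EV mean to the Control mean was 1.52. In these barcodes the ratio was 1.54 for Aldoa, 1.44 for Pgam1, 1.27 for Pkm and 1.24 for Pgk1. Ldha overlapped, and Hk2 was lower in both EV libraries, with 27.8 and 13.6 CPM for Control against 13.5 and 10.2 CPM for EV. Both EV libraries lay below Control for 24.1% of genes in these barcodes. Their proliferation genes summed to 1689 and 1136 CPM for Control against 1949 and 2062 CPM for EV.

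Among cells that passed the filters but fell in none of the 5 gates (1921 and 1765 in Control, 1244 and 1494 in EV), Ldha stood at 182 and 190 CPM for Control against 247 and 239 CPM for EV, a ratio of 1.31. The ratio was 1.37 for Gapdh, 1.32 for Pgam1, 1.26 for Pkm, 1.20 for Pgk1, 1.17 for Aldoa, 1.12 for Pfkp and 1.19 for Hk2, which had only 4.11 to 5.21 CPM. Pfkl was lower in both EV libraries of these cells, with 19.5 and 20.1 CPM for Control against 16.8 and 18.6 CPM for EV, an order found in 25% of genes there. Slc2a1 overlapped between the groups in both kinds of barcode.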

How the results depend on the processing

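No value of the 10 genes that passed the test in any setting changed direction. Of 1301 values of the 10 genes under 16 alternatives, 1212 kept their side of the threshold, 38 lost a call and 51 gained one. The number of genes called over the whole transcriptome was less stable, and the cause was not tested. EV against Control called 338, 130, 270, 11 and 1 genes in the B, CD4 T, CD8 T, Treg and macrophage sums. Without filterByExpr it called 1392, 773, 857, 154 and 65, and for the difference of the EV effect from CD4 T cells 381 in B cells, 87 in CD8 T cells, 72 in Tregs and 100 in macrophages (main counts 227, 20, 22 and 9). With a replicate block the counts were 1182, 788, 1018, 112 and 57, and Gapdh, Ldha, Pgk1 and Pgam1 were called in B cells and Pkm in CD4 and CD8 T cells. The replicate numbers were not shown to pair the libraries, since deviations of same-numbered libraries correlated at 0.031, 0.060, 0.108, -0.063 and 0.133 in the 5 classes. DESeq2 called 172 genes in CD8 T cells and 20 in Tregs. Naive-type B cells gave 520, and stricter gates 277 in CD4 T cells. Without upper limits there were 787 in B and 152 in CD8 T cells, and the median member log2 fold change in B cells was 0.29 (0.13 with them). With cycling cells removed 167 genes were called in CD8 T cells and 8 for the CD8 interaction. Tregs had 5 calls with doublets removed and 0 without upper limits, cycling cells or with stricter gates. Macrophages had 0 under these 4 settings, after thinning, and with stress and abundant genes out of the library sizes. Thinning gave 112 calls in CD8 T cells, a Treg member median of 0.064 (0.27 unthinned), class counts of 5248, 1366, 1001 and 3371 (B, CD8, Treg, macrophage, against 9024, 3691, 3343 and 5436), and interaction counts of 53, 5, 2 and 2. Leaving out each library in turn gave 97 to 2580, 94 to 2079, 187 to 2166, 18 to 137 and 22 to 87 calls in the 5 classes, and interaction counts of 87 to 275, 15 to 33, 10 to 47 and 6 to 50. In those fits the lone library is assumed to vary like the other group.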
